A study of Arabidopsis thaliana with 6 samples.

Results

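A cassette exon is an internal exon that some transcripts of a gene hold and others leave out, and when its length is a multiple of 3 its loss or gain leaves the reading frame after it intact. In the deposited Arabidopsis thaliana annotation, 1470 internal exons had both flanking introns replaced, in another transcript of the gene, by 1 intron joining the same outer sites. Of these, 700 exons in 627 genes had a length divisible by 3 and are described here. The other 770 serve for comparison. RNA came from shoots of 3-week-old Col-0 seedlings grown in vitro in long days without stress, with 3 wild-type (WT) libraries and 3 libraries of sme1-1, a mutant the labels also write smeb-1. Both genotypes share the Col-0 background, and the sources used here describe no second allele or complemented line. Whether the 3 libraries of a genotype came from separately grown plants is not stated in the labels, so p-values reflect no more than the variation among these 6 libraries, part or all of which could be technical.

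SME1 (SmE-b, AT2G18740) encodes SmE, a protein of the Sm ring that surrounds the small nuclear RNAs of the spliceosome. The U1 particle recognises the 5' splice site that ends an exon and the U2 particle, helped by the U2AF proteins, recognises the 3' splice site before it. Where both sites of an exon are missed, the outer sites are joined and the exon is skipped. Exon skipping is less common in plants than intron retention. Where an exon of a length divisible by 3 lies wholly in coding sequence, its skipping removes amino acids and keeps the frame after it. An exon inserted into a coding sequence can bring a stop codon even when it keeps the frame.

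The exons are short, and the following 8 coding exons show what such a unit looks like. They comprise the only exon that passed the test described below, exons whose shares stood apart between the genotypes, the shortest exon that could be tested, and an exon whose shares overlapped. Each is printed 5′ to 3′ on the strand of the gene from TAIR10.1, with the exon in capitals and 12 intron bases on each side in lower case, so that every line shows the ag before and the gt after the exon.
AT2G38780 (69 bases, chr2:16213412-16213480, plus strand): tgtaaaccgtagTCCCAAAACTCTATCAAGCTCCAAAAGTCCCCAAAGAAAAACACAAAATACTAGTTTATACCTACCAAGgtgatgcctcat
AT5G42770 (81 bases, chr5:17153217-17153297, plus strand): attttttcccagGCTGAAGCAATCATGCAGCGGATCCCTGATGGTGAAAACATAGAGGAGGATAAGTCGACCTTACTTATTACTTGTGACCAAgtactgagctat
AT2G32320 (21 bases, chr2:13729286-13729306, plus strand): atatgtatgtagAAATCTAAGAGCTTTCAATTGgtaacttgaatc
UBC33 (AT5G50430, 39 bases, chr5:20535596-20535634, minus strand): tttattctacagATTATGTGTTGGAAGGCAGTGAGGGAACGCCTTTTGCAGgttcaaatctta
AT1G29030 (66 bases, chr1:10131070-10131135, minus strand): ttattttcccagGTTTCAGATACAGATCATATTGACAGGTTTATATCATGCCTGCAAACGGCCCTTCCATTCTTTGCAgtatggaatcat
AT3G52050 (18 bases, chr3:19307118-19307135, plus strand): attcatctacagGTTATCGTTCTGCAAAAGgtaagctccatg
AT5G18230 (6 bases, chr5:6026595-6026600, minus strand): ttttttatgcagTGGAATgtgagcagaatg
XBAT35 (AT3G23280, 72 bases, chr3:8323099-8323170, plus strand): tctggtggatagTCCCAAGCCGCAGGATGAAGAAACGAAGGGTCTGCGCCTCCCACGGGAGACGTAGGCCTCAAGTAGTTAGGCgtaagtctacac

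A second set shows exons that keep the frame and still end it. No Araport11 coding transcript of the gene holds these 6 exons, and each was placed into the coding sequence of one that skips it. Each is printed from the first base of the exon to the first stop codon in that reading frame, which is in capitals.
ATRBP45C (AT4G27000, chr4:13556591-13556637, minus strand, first bases of a 78-base exon): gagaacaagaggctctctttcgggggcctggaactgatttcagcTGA
AT2G25910 (chr2:11050557-11050594, minus strand, of 66 bases): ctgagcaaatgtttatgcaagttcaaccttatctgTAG
SAC3C (AT3G54380, chr3:20136375-20136415, minus strand, of 96 bases): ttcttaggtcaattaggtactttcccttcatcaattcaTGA
CIPK3 (AT2G26980, chr2:11516433-11516480, minus strand, of 54 bases): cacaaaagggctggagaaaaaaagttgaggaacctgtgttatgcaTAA
AT3G20430 (chr3:7122083-7122139, plus strand, of 60 bases): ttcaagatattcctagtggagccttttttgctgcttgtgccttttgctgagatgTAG
AT1G63420 (chr1:23517035-23517107, plus strand, of 360 bases): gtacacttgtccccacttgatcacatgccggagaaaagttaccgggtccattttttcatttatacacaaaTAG

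Lengths ran from 3 to 2004 bases, with a median of 75 and quartiles of 48 and 117. There were 62 exons of 30 bases or fewer. Chromosome 1 held 184 of the 700 exons, chromosome 2 held 102, chromosome 3 held 130, chromosome 4 held 110 and chromosome 5 held 174. In 68 genes there were 2 or more such exons, and 79 exons overlapped another of the same gene, so they share transcripts and are not independent. The most in 1 gene was 4, in AT4G30820, whose product RefSeq relates to the assembly of a kinase that activates cyclin-dependent kinases.

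Being in coding sequence and having a length divisible by 3 went together. Of the 683 cassette exons that lay wholly in the coding sequence of an Araport11 transcript holding them, 459 had a length divisible by 3, or 67.2%. Among 96802 other internal exons that were wholly coding in a transcript, the share was 44.8%. Outside coding sequence it was lower, at 29.7% of the 323 cassette exons in 5' UTRs (the untranslated stretch before the start codon). Of the 153 cassette exons inserted into the coding sequence of a transcript that skips them, 26.1% had a length divisible by 3. These are counts over an annotation and involve no expression value. Coding labels come from annotated reading frames, so an exon that ends its frame is labelled as coding and UTR or as inserted.

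**Figure D1:**
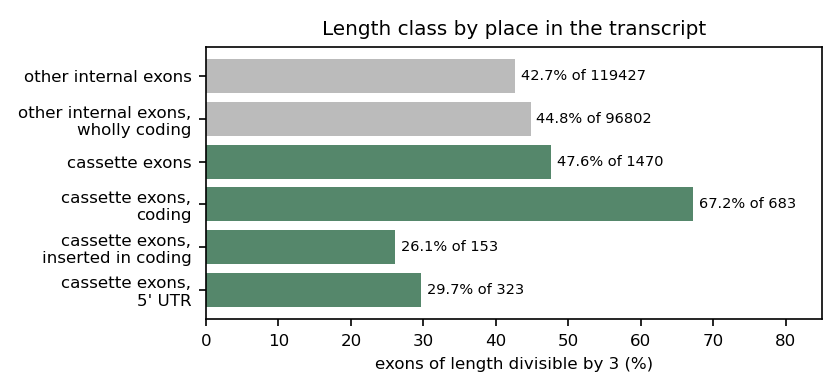
Share of exons with a length divisible by 3 (horizontal axis, percent) in 6 sets of internal exons of the deposited annotation, grey for exons that are no cassette exon and green for cassette exons. Coding cassette exons stand highest, at 67.2% of 683, and exons inserted into coding sequence lowest, at 26.1% of 153.

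Among the 700 exons, 459 were thus coding, 96 lay in a 5' UTR, 10 in a 3' UTR and 48 in genes or events with no coding transcript to refer to. Another 47 were partly coding, of which 33 held the start of the coding sequence, 13 its end and 1 both. The remaining 40 were inserted into coding sequence, and in 32 of them a codon that lay in or touched the exon was a stop codon in the reading frame. Of the 113 inserted exons not divisible by 3, 87 held a stop codon.

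The splice sites of these exons scored lower than the sites around them. A score here is the log2 odds, in bits, of the bases of a site under the frequencies at each position over all annotated introns, against the base composition of introns. The median 3' splice site score of the 700 exons was 5.08 bits and the median 5' splice site score 5.53 bits, against 6.63 and 7.12 bits over all 141522 nuclear introns. The outer sites that are joined when the exon is skipped had medians of 7.66 bits for the 5' site and 7.06 bits for the 3' site. The 770 exons not divisible by 3 shared this order, at 5.5 bits for the 3' site and 5.96 bits for the 5' site. Their outer sites had medians of 7.56 bits for the 5' site and 7.33 bits for the 3' site. All 700 exons followed an AG, and 689 were followed by GT, 9 by GC and 2 by another pair. The flanking introns of the 700 exons had medians of 138 bases before and 131 bases after the exon, where the median over all introns was 102 bases. For the 770 exons not divisible by 3 these medians were 176 and 160 bases.

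Inclusion was measured from TPM, a length-scaled relative abundance that sums to the same total in every library, which the authors deposited for each transcript. R is the summed TPM of the transcripts that hold the exon between its 2 flanking introns, S that of the transcripts with the joining intron, and the inclusion share is R/(R + S). Other transcripts of the gene enter neither sum, and the shares rest on how reads were apportioned to transcripts, not on reads counted across junctions. TPM keep no depth, so the depth behind a share is unknown and no interval is given. In WT the share was under 20% for 302 exons, from 20% to below 80% for 153 and 80% or more for 229, while 16 had no TPM of either form in any WT library. Of the 459 coding exons, 195 were under 20% and 179 at 80% or more. The inserted exons were mostly on the low side, with 24 of 40 under 20%.

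A test was possible for 345 exons in 318 genes. Over the 6 libraries these averaged 2 TPM or more for R + S, with shares averaging between 2% and 98%. Of the 355 exons left out, 134 fell short of 2 TPM, 153 had a mean share under 2% and 68 a mean share over 98%. A filter on the mean of all libraries can pass an exon through the genotype in which it is high, so counts over the 345 are not counts over all 700. Their R + S ranged from 2.02 to 670.2 TPM with a median of 11.3 TPM, and made up a median of 85.1% of the TPM of the gene.

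In the tested exons the splice-site scores also ran with the level of inclusion. The 120 exons with a WT share under 20% had median scores of 4.85 bits at the 3' site and 4.63 bits at the 5' site. For the 109 exons at 80% or more the medians were 6.26 and 6.21 bits. The ranges of both classes overlapped, and no test was made across exons.

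**Figure D2:**
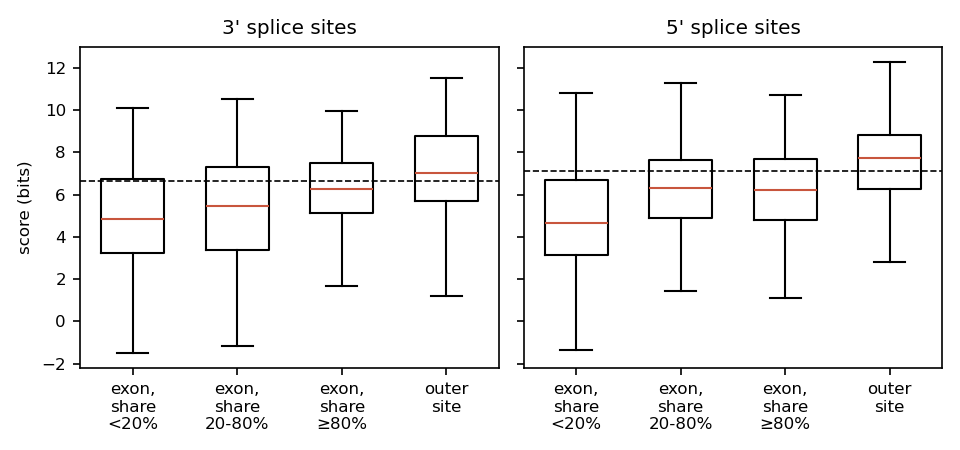
Splice site scores (vertical axis, bits) of the tested exons, split by their mean WT inclusion share, beside the outer sites joined on skipping; 3' sites are on the left and 5' sites on the right. Boxes give the quartiles, the red line the median, whiskers reach the farthest value within 1.5 box lengths, and the dashed line is the median over all introns, 6.63 bits for 3' sites and 7.12 bits for 5' sites; medians of exons under 20% are 4.85 and 4.63 bits.

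The mutant libraries are titled KO, and the targeted gene was lower in them but not absent. SME1 was at 76.9, 73.9 and 75.3 TPM in the WT libraries and at 36.1, 31.6 and 29.7 TPM in the sme1 libraries, and fell by 1.19 on the log2(TPM + 1) scale (standard error 0.08, limma adjusted p = 4.36e-05). The 4 leaf markers summed to 21000 to 22300 TPM in WT and 23500 to 25600 TPM in sme1. The 7 root markers summed to 0.85 to 2.14 TPM in WT and 24.3 to 49.6 TPM in sme1, and the 5 of them that could be tested were all higher in sme1. The 6 floral markers summed to 3.23 to 5.2 TPM in WT and 6.25 to 8.2 TPM in sme1. No marker of these lists was at 0 in every library. The part of the root marker difference in the results below was not tested, and in bulk RNA a change in the mix of cells and a change within cells cannot be told apart. Of 20 genes for factors that act where introns and exons are recognised, 5 were called higher and 4 lower, where 47.3% of all genes were higher and 20.0% lower. The count of lower genes was 1 without the first WT library and 1 without the second sme1 library. The split turned to 1 and 13 with median-of-ratios scaling and to 3 and 9 with quantile normalization. GRP7, a glycine-rich RNA-binding protein known to regulate splicing, was at 780, 664 and 651 TPM in WT and 299, 310 and 364 TPM in sme1 (change of -1.10 on the log2(TPM + 1) scale, limma adjusted p = 0.00015).

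The question put to the exons was whether the mutant includes them less or more than WT. Of the 345 tested exons, 1 passed limma at an adjusted p under 0.05, and it was skipped more in sme1. Over all 880 tested cassette exons this was also the only call, 0.114%, so a single exon decides both counts. An unadjusted p under 0.05 was reached by 63 of the 345 exons, or 18.3%, against 19.9% of all tested cassette exons.

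Counted by libraries, the shares of 61 exons were lower in every sme1 library than in any WT library and those of 31 were higher in every one, while 253 overlapped. The first count is 17.7% of the tested exons against 19.8% of all tested cassette exons, and the second is 8.99% against 8.98%. Exons not divisible by 3 had 113 lower and 48 higher of 535. Both length classes thus lay near the background, and lower shares outnumbered higher ones in each. The difference of the mean share, sme1 minus WT, had a median of -0.80 percentage points over the 345 exons, and -2.01 over the 535 not divisible by 3. With 3 libraries against 3, an exact two-sided permutation test of a single exon cannot go below p = 0.10.

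**Figure D3:**
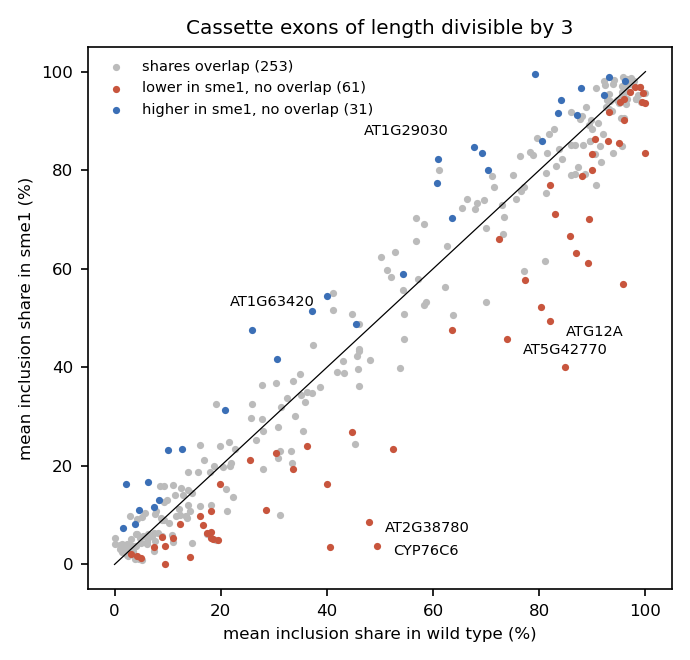
Mean inclusion share in WT (horizontal axis, percent) against mean inclusion share in sme1 (vertical axis, percent) of the 345 tested exons, each point 1 exon and the line marking equal shares. Red points (61) have every sme1 library below every WT library, blue points (31) the reverse and grey points (253) overlap; AT2G38780 lies far below the line, at 47.9% in WT and 8.54% in sme1.

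Split by WT share, exons at 80% or more were lower in 27 and higher in 8 of 109 (24.8% and 7.34%). Exons from 20% to below 80% were lower in 15 and higher in 14 of 116 (12.9% and 12.1%). For exons under 20% the counts were 19 and 9 of 120 (15.8% and 7.5%). Over all tested cassette exons the shares were 19.8% and 8.98%. The classes were cut on the same WT shares that these counts compare, so the counts are not independent of the classes. Per library, the median share of the 345 exons was 44.6%, 45.5% and 43.0% in WT and 39.5%, 40.8% and 44.6% in sme1, so the third sme1 library lay among the WT libraries. Of the 61 tested exons whose including form came from the scallop transcripts alone, 15 were lower and 3 higher (24.6% and 4.92%). Where both forms were in Araport11, 41 were lower and 25 higher of 252 (16.3% and 9.92%).

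The exon that passed the test is the 69-base exon of AT2G38780, whose product RefSeq gives as a cytochrome C oxidase subunit. Its share was 55.1%, 45.5% and 43.0% in the WT libraries and 9.7%, 7.2% and 8.7% in the sme1 libraries. The genotypes were far from overlapping, and the log2 ratio of R to S fell by 3.22 (standard error 0.32, limma adjusted p = 0.0323). Including transcripts summed to 11.7, 9.05 and 8.89 TPM in WT and to 1.64, 1.21 and 1.54 TPM in sme1. Skipping transcripts summed to 9.53, 10.9 and 11.8 TPM in WT and to 15.3, 15.6 and 16.0 TPM in sme1. Within that sum, AT2G38780.1 was at 6.75, 4.76 and 7.37 TPM in WT and at 0.0, 0.01 and 0.0 TPM in sme1, while AT2G38780.4 was at 1.85, 3.75 and 2.38 TPM in WT and at 11.93, 9.28 and 10.66 TPM in sme1. The skipping transcripts thus also differed among themselves between the genotypes. Both sums thus stood apart between the genotypes, while the whole gene had no detectable change (-0.06 on the log2(TPM + 1) scale).

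Nearly all of R in AT2G38780 came from 1 transcript that scallop, a transcript assembler, had added. That transcript was at 11.62, 8.82 and 8.55 TPM in WT and at 1.26, 1.21 and 1.19 TPM in sme1, and made up 95.9% of R. It also differs from the main skipping transcript in 2 other introns that only 1 of them holds, and its last base lies 1112 bases earlier. Whether these introns lie past that end or differ by a splice site was not checked. The exon and these other differences cannot be told apart from transcript TPM. Among Araport11 transcripts alone, the share was 0.931%, 2.09% and 2.81% in WT and 2.4%, 0.0% and 2.11% in sme1, with no separation. In limma the adjusted p rose above the threshold in 5 of the 6 fits that left out 1 library, to between 0.0604 and 0.189, and stayed under it without the third WT library at 0.032.

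For the other exons the values below are descriptions. Apart from those picked by the fixed rule given under the processing, they were chosen after their values were seen, and no adjusted p among them was below 0.05 in the main test. Shares with no overlap and means at least 10 percentage points apart were found for 42 exons, 28 lower and 14 higher in sme1. That is 8.12% and 4.06% of the tested exons, against 8.64% and 2.95% of all tested cassette exons. In 32 of the 42 the main including and the main skipping transcript differed in no intron but those around the exon, and in 26 of these their last bases also lay within 100 bases of each other. Over all 345 tested exons these numbers were 245 and 197.

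Coding exons made up 177 of the tested exons, with 28 lower (15.8%) and 18 higher (10.2%), near the 19.8% and 8.98% of all tested cassette exons. The 81-base exon of AT5G42770, a Maf-like protein, had shares of 81.5%, 67.6% and 72.7% in WT and 51.9%, 40.8% and 44.6% in sme1. All 3 sme1 libraries lay below WT, with 28.2 percentage points between the means (limma adjusted p = 0.0968). The including form was at 2.87 to 4.22 TPM in WT and 2.26 to 3.25 TPM in sme1, which overlap, and the skipping form at 0.684 to 1.58 TPM and 3.01 to 3.59 TPM, which do not. The difference between these 2 sums thus lay on the skipping side. R and S together made up 31.8% of the TPM of the gene, so most of it lay in transcripts outside both sums.

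PBD2 encodes a beta subunit of the 20S proteasome, the core that degrades ubiquitinated proteins. Its 48-base coding exon had shares of 19.8%, 34.3% and 31.7% in WT and 11.1%, 7.0% and 15.2% in sme1. The lowest WT library was close to the highest sme1 library (limma adjusted p = 0.120), and the gene averaged 34.7 TPM in WT and 46.2 TPM in sme1. AT2G32320, a tRNAHis guanylyltransferase, an enzyme that adds a guanosine to histidine tRNA, has a 21-base coding exon. Its shares were 5.0%, 22.7% and 14.8% in WT, while the sme1 libraries were at 0.00207%, 0% and 4.35% (adjusted p = 0.131). WT itself spread widely for this exon, from near the highest sme1 library upward.

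Among coding exons with higher shares, the 39-base exon of UBC33, an enzyme that passes ubiquitin on to substrates, was at 94.8%, 66.1% and 76.7% in WT. In sme1 it was at 100.0%, 100.0% and 98.8%, so that the skipping form was at most 0.466 TPM there against 2.72, 18.3 and 10.7 TPM in WT. The WT libraries differed from each other by more than the gap to sme1 (limma adjusted p = 0.0710), and the gene level fell from 52.1 to 36.3 TPM. The 66-base exon of AT1G29030, a protein of the API5 family, which inhibits cell death in animals, was at 53.95%, 72.92% and 56.09% in WT and 80.5%, 84.3% and 81.7% in sme1 (adjusted p = 0.109). Its including form was at 1.68 to 2.68 TPM in WT and 5.63 to 6.08 TPM in sme1, and its skipping form overlapped between the genotypes. The 18-base exon of AT3G52050, a 5'-3' exonuclease family protein, was at 31.4%, 41.4% and 38.9% in WT and 49.4%, 44.4% and 60.5% in sme1 (adjusted p = 0.269). In AT3G52050 R and S made up 38.6% of the TPM of the gene.

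**Figure D4:**
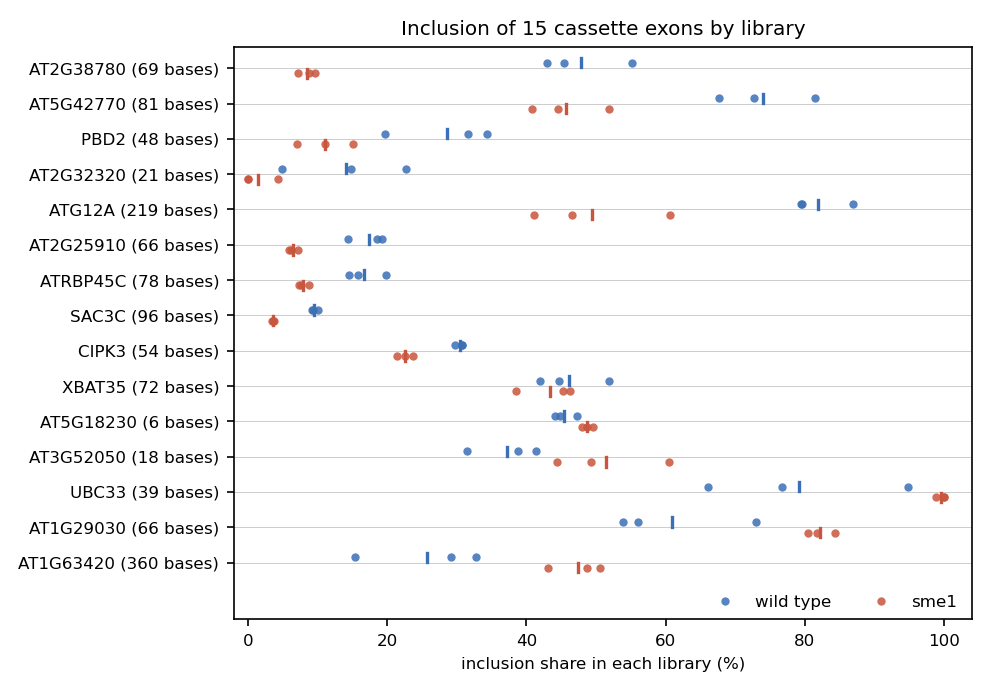
Inclusion share (horizontal axis, percent) of 15 exons in each library, blue points for WT and red for sme1, with a vertical tick at the mean of each genotype. AT2G38780 is at 43.0% to 55.1% in WT and 7.2% to 9.7% in sme1, and the points of XBAT35 overlap.

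The uncalled exons with the most TPM and an intermediate WT share were in XBAT35, CIPK3 and AT2G31810. XBAT35 encodes an E3 ubiquitin ligase, and its 72-base coding exon was at 41.9%, 51.8% and 44.6% in WT and 45.2%, 46.3% and 38.6% in sme1. The genotypes overlapped (limma adjusted p = 0.798). In AT2G31810, a small subunit of acetolactate synthase, which starts the synthesis of branched-chain amino acids, the 66-base exon was at 56.2%, 53.8% and 52.9% in WT and 62.8%, 56.4% and 57.3% in sme1 (adjusted p = 0.606). Its sme1 shares lay just above WT, with means 4.55 percentage points apart, while the gene fell from 219.2 to 29.96 TPM. The 6-base exon of AT5G18230, a NOT2/NOT3/NOT5 family protein of the CCR4-NOT complex that shortens the poly(A) tails of mRNA, was at 47.2%, 44.2% and 44.9% in WT. In sme1 it was at 48%, 48.67% and 49.54%, above WT in every library but by 3.32 percentage points only (adjusted p = 0.704).

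Of the 6 exons of 9 bases or fewer, only that of AT5G18230 could be tested. The shortest, 3 bases in PFD1 (AT2G07340, a prefoldin subunit, which helps tubulin and actin fold), had a mean R + S of 0.319 TPM. Among 27 tested exons of 30 bases or fewer, 8 were lower and 3 higher in sme1, and none passed the test. That is 29.6% and 11.1%, against 19.8% and 8.98% of all tested cassette exons. The series concerns tolerance of oxidative stress, and 2 tested exons lay in genes of antioxidant enzymes, a group added after the values were seen. FSD2 (AT5G51100), an iron superoxide dismutase of chloroplasts, has a 27-base coding exon at 91.7%, 85.2% and 87.4% in WT and 76.0%, 79.0% and 81.6% in sme1 (limma adjusted p = 0.209). The 90-base exon of PRXQ (AT3G26060), a chloroplast peroxiredoxin, was at 97.1% to 98.2% in WT and 97.2% to 98.3% in sme1.

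Exons inserted into coding sequence with a stop codon had more lower than higher shares. Of the 26 that could be tested, 9 were lower with no overlap and 1 was higher, and the mean share was below WT in 20 and above it in 6. Of the 75 tested inserted exons with a stop codon but a length not divisible by 3, 26 were lower and 3 higher. The lower shares made up 34.6% of the former and 34.7% of the latter, against 19.8% of all tested cassette exons, and this difference was not tested. None of the 26 exons divisible by 3 passed the main test. All 26 also had their including form from scallop transcripts alone. Of the 61 tested exons with that source, 24.6% were lower and 4.92% higher. The part of this source in the difference was not tested. A transcript with an early stop codon is a usual substrate of nonsense-mediated decay, which TPM of steady-state RNA do not separate from splicing.

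ATRBP45C, an RNA-binding protein with RNA recognition motifs, has such a 78-base exon, with shares of 19.8%, 14.6% and 15.8% in WT and 7.43%, 8.74% and 7.70% in sme1. No libraries overlapped (limma adjusted p = 0.102), and the including form was at 12.8 to 18.1 TPM in WT and 7.65 to 8.30 TPM in sme1. The skipping form stood at 72.1 to 75.2 TPM in WT and 86.7 to 95.3 TPM in sme1. AT2G25910, a 3'-5' exonuclease domain protein, was at 19.4%, 14.3% and 18.5% in WT and 7.21%, 6.20% and 6.00% in sme1 (adjusted p = 0.0710). Here the including form was at 6.09 to 8.756 TPM in WT and 3.845 to 5.349 TPM in sme1. The skipping form was at 34.5 to 36.5 TPM in WT and 58.2 to 68.9 TPM in sme1, so both forms stood apart. The gene rose from 43.4 to 68.7 TPM.

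SAC3C belongs to a protein family that takes part in mRNA export. Its 96-base exon spread little within a genotype, at 10.05%, 9.44% and 9.21% in WT and 3.81%, 3.67% and 3.50% in sme1 (limma adjusted p = 0.0710), and the gene showed no detectable change (adjusted p = 0.419). AT3G20430, which RefSeq relates to an adapter for the export of RNA, was at 10.4%, 10.9% and 36.9% in WT and 9.002%, 4.92% and 1.13% in sme1, and the high WT value came from 1 library. The 54-base exon of CIPK3, a kinase that acts with calcium sensor proteins, was at 30.8%, 29.7% and 30.8% in WT and 23.8%, 22.6% and 21.4% in sme1 (adjusted p = 0.272). Both forms of CIPK3 were lower in sme1, as the gene fell from 106 to 56.9 TPM.

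Not every exon of this kind lay lower. The 360-base exon of AT1G63420, an O-glucosyltransferase-like protein, was at 29.2%, 32.8% and 15.4% in WT and 43.1%, 50.6% and 48.8% in sme1 (limma adjusted p = 0.165), in a gene that rose from 19.0 to 54.9 TPM. R and S made up 44.7% of the TPM of that gene. RBP45B (AT1G11650), a relative of ATRBP45C, has an 87-base exon with a stop codon at 8.5%, 5.8% and 6.6% in WT and 5.9%, 6.3% and 5.0% in sme1, which overlap. Back among the lower ones, ATG12A, a ubiquitin-like protein of autophagy, has a 219-base exon with a stop codon. Its shares were 86.8%, 79.4% and 79.5% in WT and 60.6%, 41.1% and 46.5% in sme1 (limma adjusted p = 0.0766). In ATG12A R and S together made up 5.05% of the TPM of the gene, so the share covers a minor pair of transcripts.

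**Figure D5:**
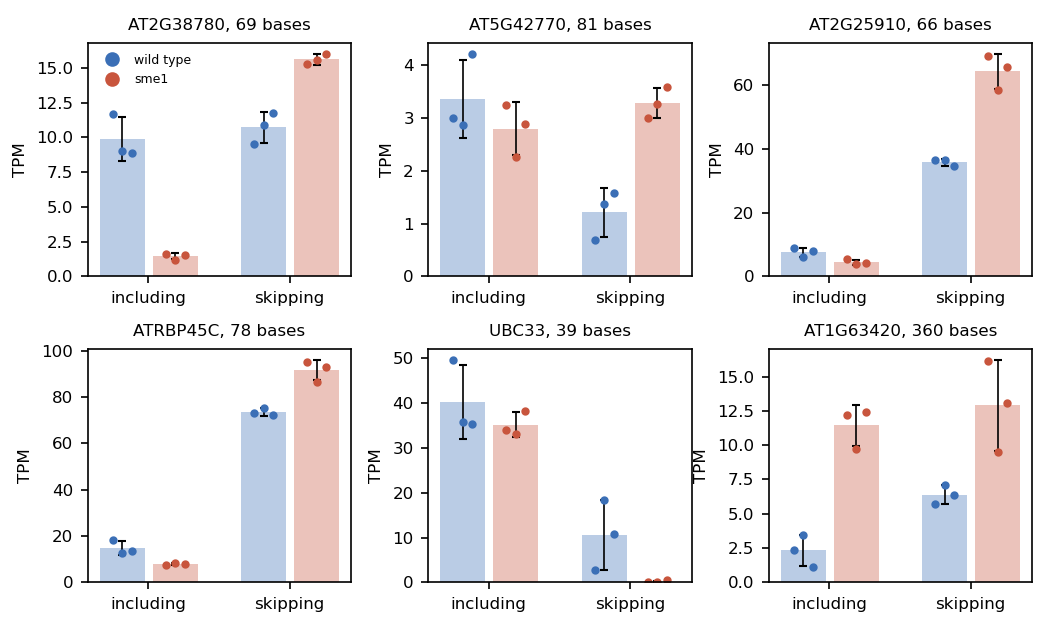
TPM (vertical axis, linear from 0) of the including and the skipping form of 6 exons, with points for the libraries, bars for the mean and error bars for the SD (n = 3), blue for WT and red for sme1. In AT2G38780 and AT2G25910 both forms stand apart between genotypes, in AT5G42770 the skipping form alone does, and in UBC33 the skipping form is near 0 in sme1.

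Exons of 5' UTRs lie before the start codon of the coding transcript used to place them, and can change upstream reading frames. Whether the other form starts its coding sequence at the same place was not checked. Of the 64 tested, 14 were lower and 3 higher. That is 21.9% and 4.69%, against 19.8% and 8.98% of all tested cassette exons. APL4 (AT2G21590), a large subunit of the enzyme that makes ADP-glucose for starch, had a 66-base exon at 60.8%, 67.1% and 29.5% in WT and 24.1%, 19.1% and 27.3% in sme1. The third WT library lay next to the sme1 libraries (limma adjusted p = 0.171), and the gene rose from 8.40 to 94.1 TPM. In ABCI19 (AT1G03905) a 246-base exon was at 28.6%, 46.0% and 45.6% in WT and 17.88%, 20.01% and 10.8% in sme1 (adjusted p = 0.105). IQD14 (AT2G43680), a calmodulin-binding protein, has a little-used 90-base exon at 4.386%, 4.2% and 3.945% in WT and 1.97%, 1.36% and 1.80% in sme1 (adjusted p = 0.0968). Of 7 tested 3' UTR exons, 3 were lower and 2 higher.

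Some of the widest gaps lay in weakly expressed or non-coding units. The 1101-base exon of CYP76C6, a cytochrome P450, was at 47.5%, 45.9% and 54.8% in WT, and in sme1 it was at 11.5% in the second library and listed at 0 in the other two (limma adjusted p = 0.0701). Its R + S averaged 2.16 TPM, just above the limit of 2 TPM, and made up 18.5% of the TPM of the gene. In the non-coding gene AT4G04223 a 42-base exon was at 78.02%, 83.5% and 93.28% in WT and 45.2%, 37.7% and 37.3% in sme1 (adjusted p = 0.0710), while the gene rose from 7.12 to 102.5 TPM. A 42-base exon of AT3G56210 has the same flanking intron lengths, 74 and 667 bases, and the same splice site scores. It went the other way, from 11.1%, 12.5% and 14.4% in WT to 24.3%, 23.5% and 22.2% in sme1 (limma adjusted p = 0.119). How reads were apportioned between these genes was not tested. THY-2 (AT4G34570), a thymidylate synthase, has a 42-base exon that is partly coding, at 76.5%, 78.4% and 76.8% in WT and 62.1%, 56.6% and 54.4% in sme1 (adjusted p = 0.0968).

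Genes were also grouped by keywords in the products RefSeq gives. In genes of RNA processing, 14 exons were tested, of which 1 was lower and 1 higher with no overlap. The rule for this group named, beside ATRBP45C, the 45-base exon of AT2G33510 (0.687%, 2.97% and 1.14% in WT and 5.17%, 9.71% and 7.38% in sme1, limma adjusted p = 0.102). It also named the 309-base exon with a stop codon of AT1G60900, the large subunit U2AF65B, at 2.36e-07%, 0% and 8.59% in WT and 6.42%, 8.47% and 14.5% in sme1, which overlap (adjusted p = 0.250). The other 3 it named, AT4G00420, AT3G27470 (by the word trans-splicing in its product only) and AT5G41690, overlapped between the genotypes, with adjusted p of 0.319, 0.345 and 0.442. Genes with ubiquitin or proteasome terms had 12 tested exons, 5 lower (ATG12A, AT2G17190, RHC1A, AT3G15070 and PBD2) and 1 higher (UBC33), or 41.7% and 8.33%. XBAT35 is not among the 12, since RefSeq gives its product as uncharacterized, and its shares overlapped. Their median difference of the share was -3.85 percentage points, against -1.42 over all tested cassette exons, and none passed the test. Kinases and phosphatases had 5 lower (14.7%) and 1 higher of 34, transport 3 lower (25%) and 1 higher of 12, and transcription 1 lower (5.88%) and 2 higher of 17. Over all tested cassette exons these shares were 19.8% lower and 8.98% higher, and no group was tested against the rest. Of 2 chloroplast exons, 1 was lower.

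Which form stood apart, including or skipping, differed from exon to exon. Among the 61 exons with lower shares, the including form was lower with no overlap in 28, the skipping form higher in 38, both in 9 and neither in 4. Among the 31 with higher shares, the including form was higher in 19, the skipping form lower in 15 and both in 3. TPM are relative to the whole library, so a difference of 1 form is not a change per cell.

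The median length of exons with lower shares was 72 bases, against 75 for exons that overlapped and 63 for exons with higher shares. Median 3' site scores were 5.47, 5.54 and 6.41 bits in that order, and 5' site scores 5.52, 5.71 and 6.21 bits. The intron before the exon had a median of 125 bases for lower, 169 for overlapping and 260 for higher shares. No test was made across exons for these features.

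Of the 627 genes, 571 averaged 1 TPM or more and were tested for their level, and of these 260 rose and 124 fell (limma on log2(TPM + 1), adjusted p under 0.05). That is 45.5% and 21.7%, against 47.3% and 20.0% of all 20100 genes tested. These directions depend on the scaling, since median-of-ratios scaling moved the median change of all genes from 0.22 to -0.03 (log2) and the split over all genes from 9505 higher and 4024 lower to 6436 and 7103. The genes holding these exons then split into 158 higher and 238 lower. Inclusion shares are ratios within a library and do not depend on that scaling. Of the 92 exons whose shares did not overlap, 69 lay in a gene whose level changed, or 75%, against 67.5% of the 345 tested exons and 67.3% of all genes tested.

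The count of exons passing the test depended most on the pseudocount. With 1 TPM in place of 0.1 TPM added to R and S, 40 of the 345 exons passed, 27 lower and 13 higher. This is 7.83% and 3.77%, beside 8.18% and 2.5% of all tested cassette exons. By its construction a pseudocount of that size pulls a ratio toward 1 where a form is near 0. Of the 13 higher calls, 7 had shares that overlapped between the genotypes, and of the 27 lower calls 5 did. Passing at that pseudocount, with shares apart, were among others AT5G42770, PBD2, AT2G25910, ATRBP45C, SAC3C, UBC33 and AT1G29030.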

How the data were processed

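The authors deposited TPM (relative abundances scaled for transcript length) per gene and per transcript for 6 libraries, and a transcript annotation joining Araport11 with transcripts assembled by scallop, per the file headers. The libraries were stranded mRNA libraries read as 150 bp paired ends, per the labels' protocols. STAR 2.5.2b and kallisto 0.43.0 appear in the submitters' processing notes, without their roles. No genome build is named; read on TAIR10.1, 99.44% of the 141522 nuclear introns had GT or GC first and AG last and sequences, products and symbols (all 627 genes matched by locus) were taken from RefSeq on that assembly. Coordinates count from 1.

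R and S were summed per exon over transcripts. limma 3.58.1 (R 4.3.3, empirical Bayes) was fitted to log2((R + 0.1)/(S + 0.1)) over all 880 cassette exons whose R + S averaged 2 TPM or more and whose share averaged 0.02 to 0.98; p-values were adjusted by Benjamini-Hochberg and called under 0.05. Genes were fitted as log2(TPM + 1) with a trend, for a mean of at least 1 TPM; that scale understates changes of low genes. The fits were also run on values simulated with normal noise on the log scale. Such values leave out the apportioning of reads to transcripts and the pseudocount, so those steps were not tested. Summaries used Python 3.11.15 and pandas 2.3.3. TPM keep no depth, so precision is known only from the spread of libraries.

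The members, gene lists and tests were chosen with earlier results of these data known. The naming rule took called exons with no overlap by size of the share difference, the 6 smallest adjusted p among exons of RNA processing genes, called exons of 30 bases or fewer, the 3 uncalled exons with most TPM and a WT share of 0.2 to 0.8, and the 5 called exons with most TPM. By it AT2G38780, AT2G33510, ATRBP45C, AT1G60900, AT4G00420, AT3G27470, AT5G41690, AT2G31810, CIPK3 and XBAT35 were named; every other exon was named after its values were seen. Alternatives changed the pseudocount, filter, model, transcripts or libraries.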

Additional observations from a re-analysis of the deposited data

How the results depend on the processing

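The count of exons with changed inclusion was 1 (0 higher and 1 lower) of 345, beside 1 of all 880 tested cassette exons. It became 2 (2 lower) with a pseudocount of 0.01 TPM, beside 2 of 880. With 1 TPM it was 40 (13 higher, 27 lower), beside 94 of 880. Where R + S averaged 5 TPM or more it was 5 (5 lower) of 280, beside 14 of 717. No filter gave 8 (2 higher, 6 lower) of 650, beside 14 of 1377. limma on the share gave 11 (1 higher, 10 lower), beside 31 of 878. A variance trend gave 10 (1 higher, 9 lower), beside 22 of 880. Among Araport11 transcripts only the count was 0 of 244, beside 0 of 515. There 40 of 244 exons had an unadjusted p under 0.05 in limma, beside 87 of 515. AT2G38780 did not enter that fit, since its mean share fell under 2%, so it was not retested there. With 1 event per pair of outer sites the count stayed at 1, beside 2 of 879. Leaving out 1 library gave 0 to 5 calls, beside 0 to 9 of 880. These were 0 to 1 higher and 0 to 4 lower, the most without the third WT library. The replicate block gave 0 calls, and 54 exons at an unadjusted p under 0.05 in limma, beside 158 of all 880. Same-numbered libraries had correlations of -0.011, -0.003 and -0.012, so the numbers do not pair them, and no library correlated best with its own number. The count of shares lower with no overlap, 61, was 37 among Araport11 transcripts only, a setting that tested 244 exons and not 345. With 1 library left out it was 72 to 84, and that of shares higher, 31, was 43 to 49, the most without the third WT library. Leaving out a library can only keep or raise such counts, so their rise shows nothing about robustness. These settings for the counts of non-overlap were chosen after seeing the data. No count over all cassette exons is given for them, so they are not read against a background. Counts of changed genes (384) stayed within 325 to 396 and the change of SME1 within -1.46 to -1.13 under every alternative run. Single values were followed for 87 exons, picked to include every exon that passed with a pseudocount of 1 TPM. Part of the passes counted next thus follows from that choice. Over 1249 values of their log2 ratio change, 64 passed the threshold that the main value missed and 6 lost it. Another 29, in 15 exons, had the opposite sign or were at 0.00, of which 1 was past the threshold. That 1 was the 63-base exon of WRKY60 (AT2G25000), at 1.44 with a pseudocount of 1 TPM against -0.22, and -0.84 to 0.14 with 1 library left out. With 1 TPM AT1G66920 went from -1.06 to 0.58, AT2G45380 from 0.13 to -0.21 and AT1G76970 from 0.97 to 0.00; with 0.01 TPM AT1G09932 went from 0.17 to -1.84, AT1G45249 from -0.28 to 0.91, AT5G67110 from 0.34 to -1.73 and AT2G33380 from 1.06 to -0.14. AT3G59300 went from -1.84 to 3.87 among Araport11 transcripts only, and limma on the share gave AT1G09932 a difference of -0.03 as a fraction. With 1 library left out the range was -0.24 to 0.45 for AT1G09932, -0.28 to 0.00 for XBAT35, -0.34 to 0.07 for AT1G12680, -0.66 to 0.11 for AT1G55130, -0.53 to 0.13 for AT4G34600, -0.36 to 0.13 for AT5G52200, -0.17 to 0.09 for AT2G39780, -0.9 to 0.12 for AT1G45249, -0.56 to 0.82 for AT5G67110, -0.19 to 0.55 for AT2G45380 and -0.06 to 2.15 for AT2G33380. The cause of the other changes was not tested. Depth cannot be read from TPM, so exons under 2 TPM were left untested.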
